A study of Danio rerio with 2 samples.

Results

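The transcription factors examined here were *etv2*, *npas4l*, *fli1a*, *fli1b*, *erg*, *ets1* and *elk3*, which were looked up by symbol among the 36351 genes measured in sorted zebrafish endothelial cells. All 7 were found, each once. They were described across the endothelial subtypes, the blood cells and the remaining cells of an *akt*Δ/Δ library and a WT library.

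Npas4l, the bHLH-PAS factor encoded at the *cloche* locus, acts at the top of the zebrafish program that turns lateral mesoderm into endothelium and blood, upstream of *etv2* and *tal1*. Etv2 (also called Etsrp) is an Ets factor that drives the angioblast program and is normally transient, and Fli1a, Fli1b, Erg and Ets1 are related Ets factors that keep endothelial genes active later on. Ets factors bind DNA through a shared domain, and Elk3 belongs to their ternary complex branch, whose members act with serum response factor and respond to Erk phosphorylation. In mammals Elk3 is best known as a repressor.

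The cells were positive for *kdrl*:mCherry, a red fluorescent reporter of endothelium, and were sorted at 24 hpf from dissociated *akt*Δ/Δ and WT embryos that both carried the reporter. The *akt*Δ/Δ embryos had alleles with premature stop codons in *akt1*, *akt2*, *akt3a* and *akt3b*, made by CRISPR/Cas9 in a line that carries *kdrl*:mCherry and also *flt4*:YFP. In the early embryo the paper reads the YFP in both arteries and veins. They came from adults homozygous for all of these but *akt2*, for which the adults were heterozygous. Embryos of a genotype were pooled, and 1 droplet library was made per genotype, so that no difference between the libraries has a replicate check and no test was made.

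Cells numbered 9464 in the *akt*Δ/Δ library, at a median depth of 8247 UMIs, and 16400 in the WT library, at a median depth of 5930.5. A UMI (unique molecular identifier) stands for 1 captured mRNA. Of the cell barcodes, 225 occurred in both libraries. In the endothelial clusters defined below, *akt2* had 512 UMIs (9.04 CPM) in the *akt*Δ/Δ library and 703 (13.3 CPM) in WT, and *akt3b* had 467 UMIs in *akt*Δ/Δ and 479 in WT. *akt3a* had 43 UMIs in *akt*Δ/Δ and 36 in WT, and *akt1* had 1 in *akt*Δ/Δ and 2 in WT. These counts do not show whether a transcript carries a mutant allele. By qRT-PCR, the paper found *akt1* highest among the isoforms expressed in sorted WT endothelial cells of the same age. It also reports a strong mRNA decrease for each of these genes in whole mutant embryos at a later age. The counts here show neither result, and the cause was not tested. Markers of other cell types also differed between the endothelial cells of the libraries: the 9 erythroid markers, all detected, summed to 1289 CPM in *akt*Δ/Δ and 3065 CPM in WT, and the 7 neutrophil markers, all detected, to 142 CPM in *akt*Δ/Δ and 249 CPM in WT. Marker lists did not all go this way: the 9 epidermis markers summed to 2984 CPM in *akt*Δ/Δ and 2759 CPM in WT. The source of this marker RNA and the part of these differences in the values below were not tested.

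The cells fell into 21 clusters. In 8 of them the reporter's own gene, *kdrl*, and the endothelial cadherin gene *cdh5* were both above the mean of the cluster means, and these are called the endothelial clusters. None of the 7 factors was among the 2000 variable genes used for clustering, so the clusters were not built on them. The endothelial clusters held 6523 *akt*Δ/Δ cells and 8830 WT cells, which was 68.9% of the *akt*Δ/Δ library and 53.8% of the WT library. A venous-like cluster (*stab2*, *dab2*, *lyve1b*) and a cycling venous-like cluster expressed scavenger receptors of veins. An arterial-like cluster was led by *ndnf* and another by *cxcr4a*, which also had 4 of the 9 endocardium markers. An endocardium-like cluster (*nfatc1*, *gata4*, *gata5*) stands for the lining of the heart. A cluster led by *foxl2b* and *foxf2a* and its cycling counterpart held at most 4 venous markers and are called by *foxl2b*. The last one, led by *rn7sk*, had a median of 1511 UMIs per cell in *akt*Δ/Δ and 1087.5 in WT and stays unnamed.

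Levels are CPM, that is, a gene's summed UMIs over all UMIs of the cells concerned on the usual CPM scale, and differences between the libraries are log2 ratios with *akt*Δ/Δ over WT. The values in brackets are exact 95% intervals, Poisson for levels and Clopper-Pearson for shares and ratios, and they cover counting error only. UMIs are counted at the 3′ end, so a level is compared between cell groups and libraries for 1 gene and not between genes.

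**Figure D1:**
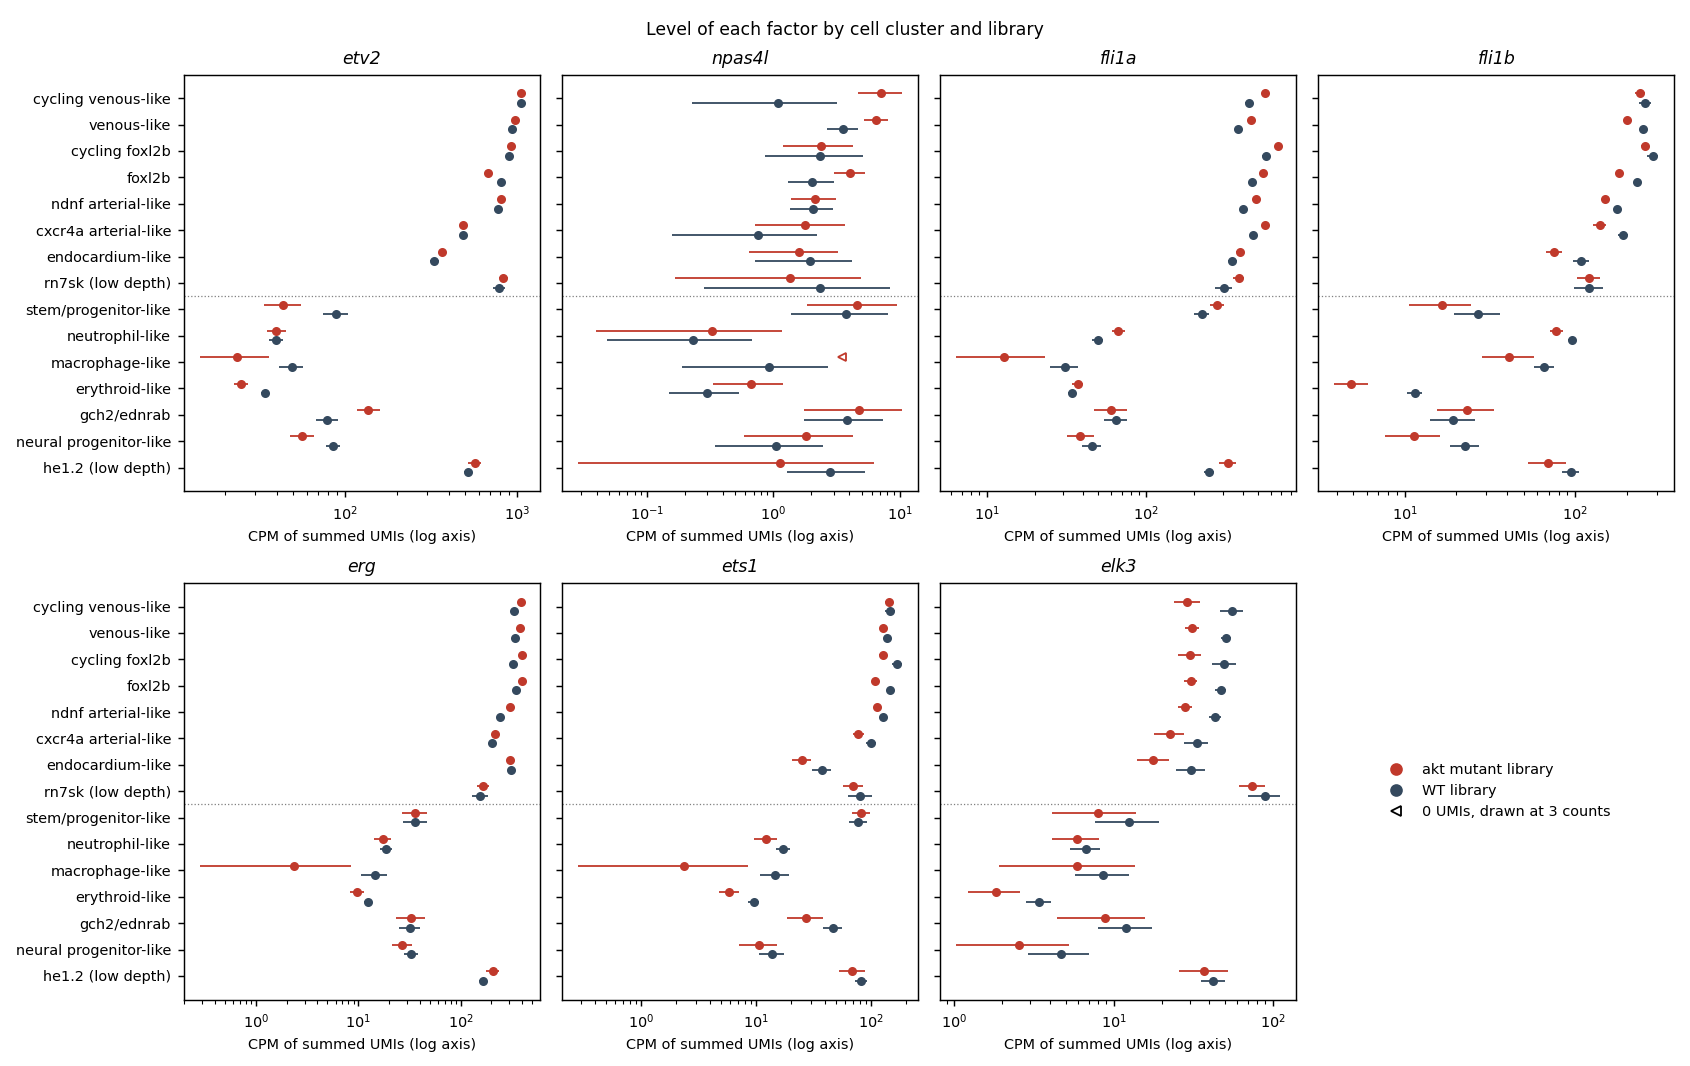
CPM of summed UMIs (log axis) of each of the 7 factors in the 8 endothelial clusters (above the dotted line) and in 7 other clusters, with *akt*Δ/Δ (red) above WT (dark blue) and 95% Poisson intervals as bars. *etv2* runs between 368 CPM in the endocardium-like cluster and 1052 CPM in the cycling venous-like cluster of the *akt*Δ/Δ library, while in the erythroid-like cluster it is at 24.9 CPM.

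*npas4l* (LL0000020506) was the rarest of the factors, with 433 UMIs in both libraries together. In the endothelial clusters it was at 3.89 CPM (3.39 to 4.43) in the *akt*Δ/Δ library, from 220 UMIs, and at 2.32 CPM (1.93 to 2.77) in WT, from 123 UMIs. The *akt*Δ/Δ value was therefore higher, with a log2 ratio of 0.74 (0.42 to 1.07). The venous-like cluster held 34.4% of all *npas4l* UMIs in *akt*Δ/Δ and 28.8% in WT, against 14.7% of all UMIs in *akt*Δ/Δ and 11.2% in WT. The *foxl2b* cluster held 20.3% of them in *akt*Δ/Δ and 14.1% in WT, against 13.9% of all UMIs in *akt*Δ/Δ and 9.55% in WT. In the *akt*Δ/Δ library the venous-like cluster was at 6.52 CPM (88 UMIs) and the cycling venous-like cluster at 7.12 CPM (27 UMIs), and in WT they were at 3.55 CPM (51 UMIs) and 1.1 CPM (3 UMIs). The log2 ratio was 0.88 (0.36 to 1.41) in the venous-like cluster, 2.69 (0.99 to 5.06) in its cycling counterpart and 1.0 (0.29 to 1.75) in the *foxl2b* cluster, where *npas4l* had 52 UMIs in *akt*Δ/Δ and 25 in WT. In the *ndnf* arterial-like cluster the levels of 2.13 CPM in *akt*Δ/Δ and 2.05 CPM in WT did not differ beyond counting error. Outside the endothelium, the level was 4.63 CPM (1.86 to 9.53) in *akt*Δ/Δ and 3.73 CPM (1.37 to 8.13) in WT in the stem and progenitor-like cluster, from 7 UMIs in *akt*Δ/Δ and 6 in WT. In a cluster led by *gch2* and *ednrab* it was 4.79 CPM (1.76 to 10.4) in *akt*Δ/Δ and 3.86 CPM (1.76 to 7.33) in WT, from 6 UMIs in *akt*Δ/Δ and 9 in WT, so these levels were not below the endothelial ones beyond counting error. In the *gch2* and *ednrab* cluster the 6 *akt*Δ/Δ UMIs came from only 2 cells, with up to 5 in a cell, and the interval takes no account of this. The order of the 8 endothelial clusters by *npas4l* had a Spearman rho of 0.10 between the libraries, but at these counts 1 of 7 neighbouring pairs was apart by more than counting error in *akt*Δ/Δ and 0 of 7 in WT.

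At most 3 *npas4l* UMIs were seen in an endothelial cell, and 201 endothelial cells in *akt*Δ/Δ and 119 in WT had any. These cells were compared with the remaining endothelial cells of the same library. *etv2* was at 1040 CPM against 774 CPM in *akt*Δ/Δ and at 895 CPM against 799 CPM in WT, log2 ratios of 0.43 (0.37 to 0.48) in *akt*Δ/Δ and 0.16 (0.07 to 0.26) in WT. *tal1*, a bHLH factor that opens the blood program, was at 146 CPM against 71.4 CPM in *akt*Δ/Δ and at 82.0 CPM against 61.8 CPM in WT. *lmo2*, its LIM-domain partner, was at 706 CPM against 428 CPM in *akt*Δ/Δ and at 569 CPM against 492 CPM in WT. *fli1a* had log2 ratios of 0.08 (0.00 to 0.16) in *akt*Δ/Δ and 0.01 (-0.13 to 0.15) in WT, *erg* of 0.02 (-0.08 to 0.12) in *akt*Δ/Δ and 0.14 (-0.02 to 0.30) in WT, and *fli1b* of 0.22 (0.09 to 0.35) in *akt*Δ/Δ and -0.11 (-0.32 to 0.09) in WT. *ets1* had 0.18 (0.01 to 0.34) in *akt*Δ/Δ and 0.09 (-0.16 to 0.33) in WT, and *elk3* had 0.28 (-0.03 to 0.59) in *akt*Δ/Δ and 0.14 (-0.29 to 0.54) in WT. *kdrl* was lower in the cells with *npas4l* in *akt*Δ/Δ, at -0.28 (-0.40 to -0.16), and at -0.13 (-0.30 to 0.03) in WT. *cdh5* differed by a log2 ratio of -0.01 (-0.10 to 0.08) in *akt*Δ/Δ and 0.10 (-0.03 to 0.23) in WT. Within the venous-like cluster alone, *tal1* was at 242 CPM against 83.5 CPM in *akt*Δ/Δ and at 112 CPM against 70.9 CPM in WT. There *kdrl* did not differ beyond counting error, with log2 ratios of -0.10 (-0.32 to 0.11) in *akt*Δ/Δ and 0.08 (-0.20 to 0.35) in WT. Cells with a UMI of *npas4l* were also deeper, with medians of 12397 UMIs against 8313 in *akt*Δ/Δ and 7786 against 5593 in WT, and the part of depth in these ratios was not tested. In the *gch2* and *ednrab* cluster, 1 cell of the *akt*Δ/Δ library had 5 *npas4l* UMIs, the most of any cell.

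*etv2* (LL0000009838), the angioblast factor, was at 786 CPM (779 to 793) in the endothelial clusters of *akt*Δ/Δ and at 801 CPM (794 to 809) in WT. The log2 ratio of -0.03 (-0.05 to -0.01) left out 0, but its sign depends on the scaling: TMM factors, which set the bulk of genes to no change, gave 0.048 (0.029 to 0.068). Over all cells with a UMI of *kdrl* or *cdh5*, which adds cells of other clusters, it was 0.31 (0.29 to 0.33). In the sum of the non-endothelial clusters it was -0.33 (-0.41 to -0.25). In the *foxl2b* cluster *etv2* was lower, at 674 CPM in *akt*Δ/Δ and 808 CPM in WT, a log2 ratio of -0.26 (-0.30 to -0.22). In the other 7 endothelial clusters its log2 ratio lay between -0.01 and 0.16. *etv2* was highest in the cycling venous-like cluster of both libraries, at 1052 CPM in *akt*Δ/Δ and 1056 CPM in WT, followed by the venous-like cluster at 968 CPM in *akt*Δ/Δ and 936 CPM in WT. It was lowest in the endocardium-like cluster, at 368 CPM in *akt*Δ/Δ and 330 CPM in WT, and second lowest in the *cxcr4a* arterial-like cluster, at 488 CPM in *akt*Δ/Δ and 487 CPM in WT. All neighbours in this order were apart by more than counting error in *akt*Δ/Δ but the *rn7sk* and *ndnf* clusters. In WT 3 neighbouring pairs were not, and the *foxl2b* cluster stood 2 places higher.

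*fli1a* (LL0000010389), whose regulatory sequence is widely used to label zebrafish endothelium, was at 502 CPM (496 to 507) in *akt*Δ/Δ endothelial clusters and 417 CPM (412 to 423) in WT, a log2 ratio of 0.27 (0.24 to 0.29). It was higher in *akt*Δ/Δ in all 8 endothelial clusters, by log2 ratios of 0.15 to 0.34, and all 8 intervals lay above 0. The highest level was in the cycling *foxl2b* cluster, at 663 CPM in *akt*Δ/Δ and 561 CPM in WT. The *cxcr4a* arterial-like cluster came next, at 554 CPM in *akt*Δ/Δ and 465 CPM in WT, and did not differ beyond counting error from the cluster after it in either library.

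*fli1b* (LL0000010390), the second zebrafish copy of *fli1*, went the other way. It was at 176 CPM (173 to 180) in *akt*Δ/Δ and 214 CPM (211 to 218) in WT, a log2 ratio of -0.28 (-0.32 to -0.25). Over all cells with a UMI of *kdrl* or *cdh5*, which adds cells of other clusters, the ratio was 0.017 (-0.021 to 0.055). In the sum of the non-endothelial clusters *fli1b* was lower in *akt*Δ/Δ as well, at -0.57 (-0.69 to -0.46). Those clusters held 31.1% of *akt*Δ/Δ cells and 46.2% of WT cells, and the part of this in the pooled ratio was not tested. None of the 8 endothelial clusters had a higher value in *akt*Δ/Δ, and 6 of the 8 intervals lay below 0. The ratios ran between -0.52 (-0.74 to -0.30) in the endocardium-like cluster, where *fli1b* was at 75.1 CPM in *akt*Δ/Δ and 108 CPM in WT, and -0.01 (-0.37 to 0.36) in the *rn7sk* cluster. The level was highest in the cycling *foxl2b* cluster, at 257 CPM in *akt*Δ/Δ and 284 CPM in WT. Both *fli1* copies are similar in sequence, and how the authors' counting split reads between them is not known.

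*erg* (LL0000009775), which keeps vessels intact and is expressed throughout endothelium, was at 348 CPM (343 to 353) in *akt*Δ/Δ and 300.5 CPM (295.8 to 305.2) in WT, a log2 ratio of 0.21 (0.18 to 0.24). It was higher in *akt*Δ/Δ in 7 of the 8 endothelial clusters, with 5 intervals above 0. The largest ratio was 0.32 (0.26 to 0.39) in the *ndnf* arterial-like cluster, at 306 CPM in *akt*Δ/Δ and 244 CPM in WT. In the endocardium-like cluster the levels were 307 CPM in *akt*Δ/Δ and 308 CPM in WT, a log2 ratio of 0.00 (-0.12 to 0.12).

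*ets1* (LL0000009835), which acts with Vegf and Mapk signals in angioblasts, was at 108 CPM (106 to 111) in *akt*Δ/Δ and 130 CPM (127 to 133) in WT, a log2 ratio of -0.26 (-0.31 to -0.21). Over all cells with a UMI of *kdrl* or *cdh5* the ratio was 0.047, with an interval that held 0. In the sum of the non-endothelial clusters it was -0.41 (-0.57 to -0.26). *ets1* was lower in *akt*Δ/Δ in all 8 endothelial clusters, with 6 intervals below 0. In the *foxl2b* cluster it was at 109 CPM in *akt*Δ/Δ and 147 CPM in WT, a log2 ratio of -0.43 (-0.54 to -0.33). In the cycling venous-like cluster the 143 CPM of *akt*Δ/Δ and the 148 CPM of WT did not differ beyond counting error.

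*elk3* (LL0000009562), the ternary complex factor, had the lowest ratio of the 7. It was at 29.6 CPM (28.2 to 31.1) in *akt*Δ/Δ endothelial clusters, from 1678 UMIs, and 46.5 CPM (44.7 to 48.4) in WT, from 2465 UMIs, a log2 ratio of -0.65 (-0.74 to -0.56). In the sum of the non-endothelial clusters *elk3* was lower in *akt*Δ/Δ as well, at -0.63 (-0.89 to -0.37). *elk3* was lower in *akt*Δ/Δ in all 8 endothelial clusters, and 7 of the 8 intervals lay below 0. The ratios of these 7 clusters ran between -0.93 (-1.30 to -0.57) in the cycling venous-like cluster, at 29.0 CPM in *akt*Δ/Δ and 55.3 CPM in WT, and -0.56 (-0.97 to -0.16) in the *cxcr4a* arterial-like cluster, at 22.5 CPM in *akt*Δ/Δ and 33.2 CPM in WT. The exception was the low-depth *rn7sk* cluster, which had the highest *elk3* level of all clusters, 74.5 CPM in *akt*Δ/Δ and 88.8 CPM in WT, with a log2 ratio of -0.25 (-0.69 to 0.19).

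**Figure D2:**
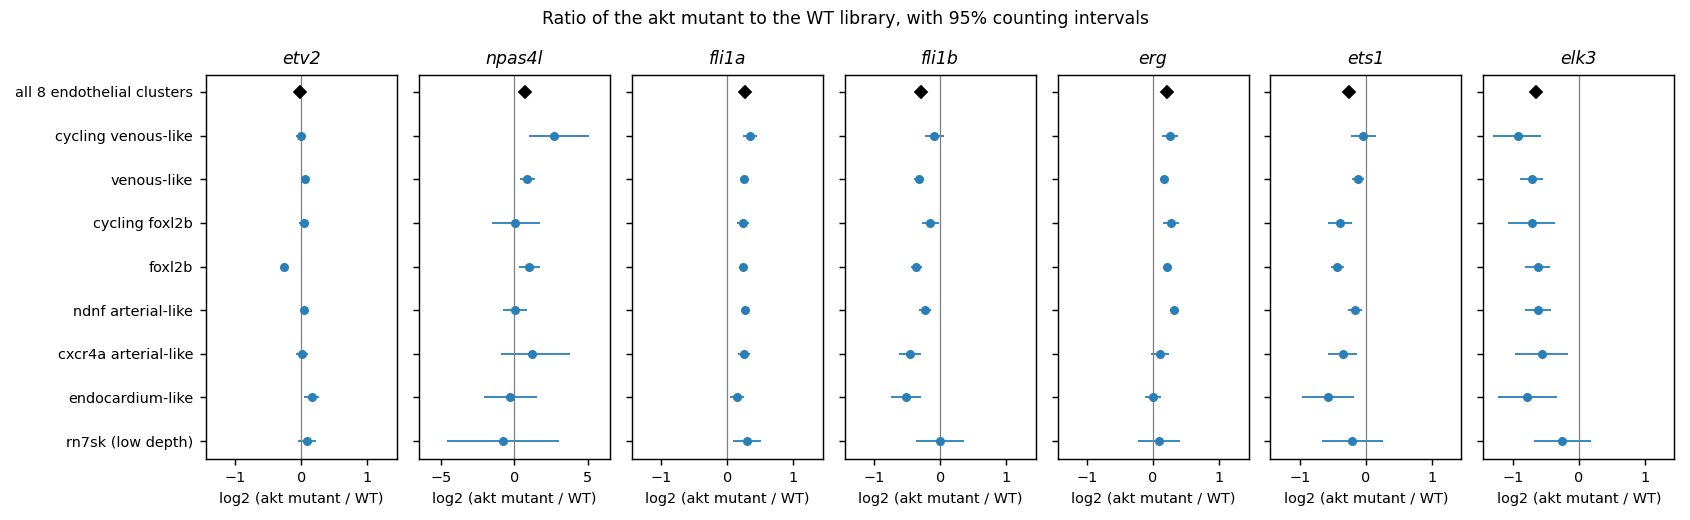
Log2 of *akt*Δ/Δ over WT (x axis, 0 for no difference, wider range for *npas4l*) of the 7 factors over all endothelial clusters (black diamonds) and in each of the 8 (blue points), with 95% counting intervals as bars. *fli1a* lies right of 0 and *elk3* left of 0 in all 8 clusters, and the *etv2* point that stands apart is the *foxl2b* cluster at -0.26.

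Against all genes, calls of this kind were common. A gene with more UMIs has a narrower interval, and the shares of all genes given here and below were not matched for UMI number. Over the endothelial clusters together, 3 of the 7 factors (*npas4l*, *fli1a*, *erg*) had an interval above 0 and 4 (*etv2*, *fli1b*, *ets1*, *elk3*) below 0, where 17.9% of the 17243 genes with at least 20 UMIs lay above 0 and 31.0% below. A log2 ratio at least 0.5 from 0 as well was found for 2 of the 7 (*npas4l* and *elk3*), against 21.6% of all genes. The median over the 7 was -0.03 and that of all genes -0.09. An interval above 0 was found for 11.8% of genes in the *foxl2b* cluster, 13.3% in the venous-like, 15% in the *ndnf* arterial-like, 9.46% in the *cxcr4a* arterial-like, 5.69% in the *rn7sk*, 7.38% in the endocardium-like, 11.8% in the cycling *foxl2b* and 10.5% in the cycling venous-like cluster. An interval below 0 was found for 25.0% of genes in the *foxl2b*, 24.7% in the venous-like, 18.4% in the *ndnf* arterial-like, 12.1% in the *cxcr4a* arterial-like, 10.8% in the *rn7sk*, 18.8% in the endocardium-like, 11.9% in the cycling *foxl2b* and 13.6% in the cycling venous-like cluster. In the sum of the 13 other clusters, 1 of the 7 (*fli1a*) had an interval above 0, where 19.4% of genes did, and 5 (*etv2*, *fli1b*, *erg*, *ets1*, *elk3*) below 0, where 26.1% did. Cluster by cluster, *fli1a* went both ways: of the 11 with at least 20 of its UMIs, 3 had an interval above 0 and 3 below. Its log2 ratio was 0.43 (0.25 to 0.62) in the neutrophil-like cluster and -1.25 (-2.30 to -0.35) in the macrophage-like cluster.

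An artery class and a vein class were based on the paper's marker genes. For artery these were *notch3*, *dll4* and *efnb2a*, and for vein *lyve1b*, *stab2* and *dab2*. The paper selected cells that co-express the 3 genes of a class, which was read here as the rule that each of the 3 is detected. Within the endothelial clusters, 401 *akt*Δ/Δ and 487 WT cells were artery cells by this rule, with medians of 11158 UMIs in *akt*Δ/Δ and 7392 in WT, and 2138 *akt*Δ/Δ and 3107 WT cells were vein cells. Cells that met both rules were left out. Most endothelial cells of each library met neither rule, whereas the paper's artery and vein percentages together cover nearly all its endothelial cells. The classes used here may therefore differ from the study's. In artery cells *etv2* was higher in *akt*Δ/Δ, at 843 CPM, than in WT, at 740 CPM, a log2 ratio of 0.19 (0.12 to 0.26), and *fli1a* (551 CPM in *akt*Δ/Δ, 430 CPM in WT) and *erg* (303 CPM in *akt*Δ/Δ, 243 CPM in WT) were higher as well. These were 3 of 7, where 12.4% of all genes tested had an interval above 0. *fli1b* (167 CPM in *akt*Δ/Δ, 186 CPM in WT) and *elk3* (28.9 CPM in *akt*Δ/Δ, 39.9 CPM in WT) were lower, 2 of 7, where 11.2% of genes were. *ets1*, at 122 CPM in *akt*Δ/Δ and 126 CPM in WT, did not differ beyond counting error. In vein cells *etv2* was lower in *akt*Δ/Δ, at 828 CPM, than in WT, at 887 CPM, a log2 ratio of -0.10 (-0.13 to -0.07), but with TMM factors the ratio was -0.019 (-0.047 to 0.010), which holds 0, as did the interval after thinning to 1000 UMIs (-0.34 to 0.12). *fli1b*, *ets1* and *elk3* were lower too, 4 of 7 with *etv2*, where 26.7% of genes were, and *npas4l*, *fli1a* and *erg* were higher, 3 of 7, where 15% of genes were. Detection of 3 markers depends on depth. With the arterial-like clusters in place of artery cells the *etv2* ratio was 0.030 (-0.007 to 0.067), and with the venous-like clusters in place of vein cells it was 0.046 (0.015 to 0.077), on the other side of 0. With 2 of the 3 arterial markers it was 0.056 (-0.008 to 0.119).

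For 6 of the 7 factors, *npas4l* being the exception, the order of the endothelial clusters was similar in both libraries. The order of the 8 clusters had a Spearman rho between the libraries of 0.98 for *fli1a* and *fli1b*, 0.93 for *etv2*, 0.90 for *erg* and *ets1* and 0.83 for *elk3*. The endocardium-like cluster had the lowest *etv2*, *fli1b*, *ets1* and *elk3* of the 8 in both libraries, while the *rn7sk* cluster had the lowest *fli1a* and *erg*. For *elk3* the endocardium-like cluster was not apart from the *cxcr4a* arterial-like cluster beyond counting error. For *fli1b* in WT it was not apart from the *rn7sk* cluster. For *fli1a* the *rn7sk* cluster was not apart from the endocardium-like cluster in either library. Comparing the endocardium-like cluster with the other endothelial cells, *ets1* was at 25.0 CPM against 115 CPM in *akt*Δ/Δ and 37.3 CPM against 136 CPM in WT, log2 ratios of -2.20 (-2.49 to -1.93) in *akt*Δ/Δ and -1.86 (-2.14 to -1.60) in WT. *etv2* (-1.16 in *akt*Δ/Δ, -1.33 in WT), *fli1b* (-1.30 in *akt*Δ/Δ, -1.04 in WT) and *elk3* (-0.79 in *akt*Δ/Δ, -0.64 in WT) were lower there too. *fli1a* was lower by less, at -0.42 in *akt*Δ/Δ and -0.29 in WT. For *erg* the log2 ratio was -0.19 (-0.27 to -0.11) in *akt*Δ/Δ and 0.04 (-0.06 to 0.13) in WT. The median of all genes was -0.27 in *akt*Δ/Δ and -0.15 in WT.

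Between the arterial-like and the venous-like clusters, *etv2* was lower in arterial-like cells, at 728 CPM against 987 CPM in *akt*Δ/Δ and 713 CPM against 956 CPM in WT, log2 ratios of -0.44 (-0.47 to -0.41) in *akt*Δ/Δ and -0.42 (-0.46 to -0.39) in WT. *erg* (-0.42 in *akt*Δ/Δ, -0.52 in WT), *fli1b* (-0.51 in *akt*Δ/Δ, -0.49 in WT) and *ets1* (-0.31 in *akt*Δ/Δ, -0.21 in WT) were lower in arterial-like cells as well. So were *elk3* (-0.20 in *akt*Δ/Δ, -0.34 in WT) and, at low counts, *npas4l* (-1.70 in *akt*Δ/Δ, -0.85 in WT). *fli1a* was slightly higher in arterial-like cells, by 0.10 (0.05 to 0.14) in *akt*Δ/Δ and 0.11 (0.07 to 0.16) in WT. These sums include the *cxcr4a* and the cycling venous-like clusters. The non-cycling venous-like over the *ndnf* cluster alone gave 0.27 for *etv2* in *akt*Δ/Δ and 0.26 in WT. It gave 0.31 and 0.47 for *erg*, 0.43 and 0.52 for *fli1b*, 0.16 and 0.12 for *ets1*, and -0.12 and -0.10 for *fli1a*, with *akt*Δ/Δ before WT. For *elk3* it gave 0.15 (-0.06 to 0.36) in *akt*Δ/Δ, which holds 0, and 0.24 (0.08 to 0.40) in WT, and for *npas4l* 1.62 and 0.79. The median of all genes was -0.02 in *akt*Δ/Δ and 0.06 in WT, and the *ets1* interval in WT (0.02 to 0.21) held that median. Of the arterial-like clusters, the one led by *cxcr4a* had less *etv2* than the one led by *ndnf*, at 488 CPM against 804 CPM in *akt*Δ/Δ and 487 CPM against 780 CPM in WT, and more *fli1a*, at 554 CPM against 488 CPM in *akt*Δ/Δ and 465 CPM against 404 CPM in WT.

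Cycling cells had more of some factors than their non-cycling counterparts. In the *foxl2b* pair, *fli1a* was at 663 CPM in the cycling cluster against 536 CPM in *akt*Δ/Δ and at 561 CPM against 455 CPM in WT, log2 ratios of 0.31 (0.24 to 0.37) in *akt*Δ/Δ and 0.30 (0.21 to 0.38) in WT. In the venous-like pair its log2 ratio was 0.30 (0.23 to 0.37) in *akt*Δ/Δ and 0.21 (0.12 to 0.30) in WT. *etv2* was higher in cycling cells of both pairs and both libraries, most in the *foxl2b* pair of *akt*Δ/Δ, at 929 CPM against 674 CPM, where the median of all genes was itself 0.19 higher. In the venous-like pair its log2 ratio was 0.12 (0.07 to 0.17) in *akt*Δ/Δ and 0.17 (0.11 to 0.23) in WT, where the median of all genes was 0.11 in *akt*Δ/Δ and 0.07 in WT, so that the *akt*Δ/Δ value was near that median. *erg* did not differ beyond counting error in either pair of either library, with log2 ratios between -0.08 and 0.05. In the *foxl2b* pair its log2 ratio was -0.01 (-0.09 to 0.06) in *akt*Δ/Δ and -0.08 (-0.19 to 0.03) in WT. Both intervals lay below the median of all genes there, 0.19 in *akt*Δ/Δ and 0.08 in WT. In the venous-like pair *erg* was at 0.05 (-0.03 to 0.13) in *akt*Δ/Δ, an interval that held the median given above. In WT it was at -0.04 (-0.140 to 0.068), which ended just below the median of 0.069.

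**Figure D3:**
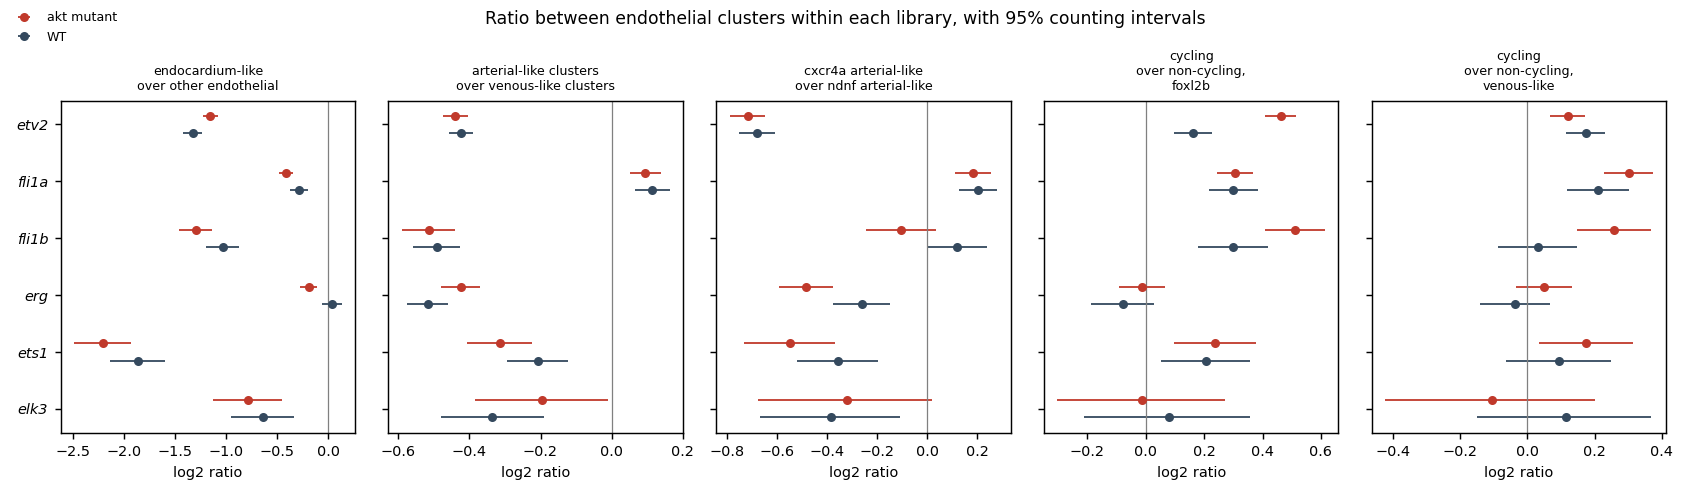
Log2 ratio (x axis, a range of its own in each panel) between endothelial clusters within a library for 6 factors, with *akt*Δ/Δ (red) above WT (dark blue) and 95% counting intervals as bars. *ets1* is at -2.20 in *akt*Δ/Δ and -1.86 in WT in the endocardium-like cluster against the rest, while *erg* is at -0.19 in *akt*Δ/Δ and 0.04 in WT there.

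In blood cells the factors separated. Free RNA from endothelial cells can reach any droplet, and RNA from 1 source keeps its genes in 1 ratio, so each factor was set against the summed UMIs of *kdrl* and *cdh5*, and that quotient against the one in the endothelial clusters of the same library. The erythroid-like cluster was chosen as a cell type that should lack these factors. There the quotient was 0.89-fold the endothelial one for *etv2* in *akt*Δ/Δ and 0.67-fold in WT, and 0.78-fold for *fli1b* in *akt*Δ/Δ and 0.83-fold in WT. It was higher there for *fli1a*, 2.07-fold in *akt*Δ/Δ and 1.28-fold in WT, and for *ets1*, 1.51-fold in *akt*Δ/Δ and 1.15-fold in WT. At low counts the quotient was also above the endothelial one for *elk3* (30 UMIs there in *akt*Δ/Δ, 125 in WT) and *npas4l* (11 UMIs in each library). For *fli1a*, *ets1*, *elk3* and *npas4l* the cluster may thus not be a reference free of the factor, and the cause was not tested. In the neutrophil-like cluster (*lyz*, *mpx*, *npsn*) the quotient of *fli1b* was 6.36-fold in *akt*Δ/Δ and 5.62-fold in WT, at 77.5 CPM in *akt*Δ/Δ and 95.5 CPM in WT. That of *etv2* was 0.74-fold in *akt*Δ/Δ and 0.63-fold in WT there, close to the erythroid-like value. In the macrophage-like cluster (*mfap4*, *mpeg1.1*), *fli1b* was 11.8-fold in *akt*Δ/Δ, from 35 UMIs, and 3.79-fold in WT, from 213 UMIs, at 41.1 CPM in *akt*Δ/Δ and 65.5 CPM in WT. The *akt*Δ/Δ quotient there rests on 12 UMIs of *kdrl* and *cdh5*. In both myeloid clusters *fli1b* was thus above its erythroid-like value, in both libraries.

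On the RefSeq assembly GRCz12tu, *etv2* and *fli1b* are neighbours and the span of the caspase gene *caspa* overlaps both. *caspa* itself had 73 UMIs in the neutrophil-like cluster of *akt*Δ/Δ and 216 in that of WT, and in the macrophage-like cluster 34 in *akt*Δ/Δ and 189 in WT. In all endothelial clusters it had 18 in *akt*Δ/Δ and 31 in WT, so that it was seen mostly in the same myeloid cells as the *fli1b* excess. Whether reads of the one gene were counted for the other was not tested. *ets1* and *fli1a* are also neighbours on that assembly, and *erg* lies beside *ets2*.

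The stem and progenitor-like cluster (*myb*, *runx1*, *gfi1aa*), whose cells arise from endothelium, had another set. *fli1a* was at 277 CPM in *akt*Δ/Δ and 222 CPM in WT, against 37.1 CPM in *akt*Δ/Δ and 34.1 CPM in WT in the erythroid-like cluster. Its quotient was 1.86-fold the endothelial one in *akt*Δ/Δ and 2.1-fold in WT. *ets1* was at 81.9 CPM in *akt*Δ/Δ and 77.8 CPM in WT, with quotients of 2.55-fold in *akt*Δ/Δ and 2.37-fold in WT, above the erythroid-like values. *etv2* was at 43.6 CPM in *akt*Δ/Δ, from 66 UMIs, and 88.4 CPM in WT, from 142 UMIs, a log2 ratio between the libraries of -1.02 (-1.46 to -0.59). Its quotient was 0.19-fold in *akt*Δ/Δ and 0.44-fold in WT. That of *erg* was 0.35-fold in *akt*Δ/Δ and 0.48-fold in WT, and that of *fli1b* 0.32-fold in *akt*Δ/Δ and 0.49-fold in WT. Per UMI of *kdrl* and *cdh5*, cells of this cluster thus had more *fli1a* and *ets1* than endothelial cells and less *etv2*, *erg* and *fli1b*, in both libraries, although the *fli1a* quotient of *akt*Δ/Δ did not exceed that of the erythroid-like cluster. In CPM both were lower than in the endothelial clusters, where *fli1a* was at 502 CPM in *akt*Δ/Δ and 417 CPM in WT. *ets1* was at 108 CPM there in *akt*Δ/Δ and 130 CPM in WT. *kdrl* and *cdh5* themselves were below the endothelial rule in this cluster.

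Elsewhere, *ets1* was 2.66-fold the endothelial quotient in *akt*Δ/Δ and 2.98-fold in WT in the cluster led by *gch2* and *ednrab*, which carried 6 neural crest and 7 mesenchyme markers, at 27.2 CPM in *akt*Δ/Δ and 46.7 CPM in WT. A low-depth cluster led by the hatching enzyme gene *he1.2*, with medians of 683 UMIs per cell in *akt*Δ/Δ and 878 in WT, had *etv2* at 567 CPM in *akt*Δ/Δ and 517 CPM in WT. It fell short of the endothelial rule and is counted outside it.

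**Figure D4:**
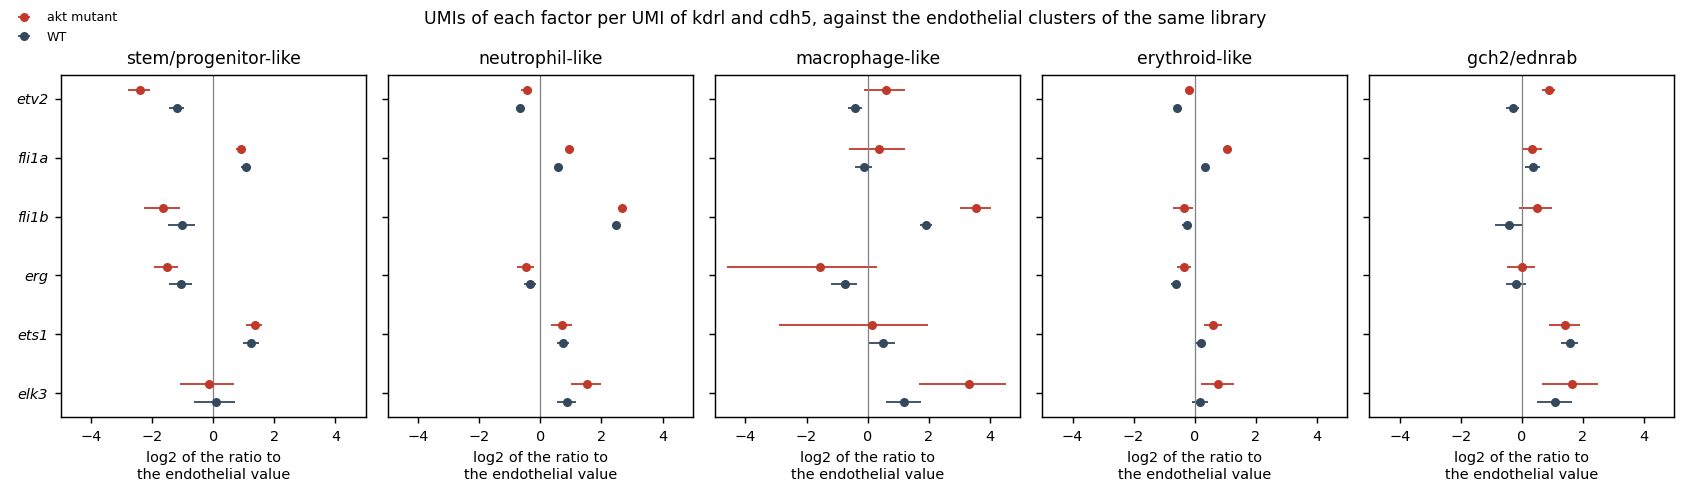
Log2 of the UMIs of each factor per UMI of *kdrl* and *cdh5*, divided by the same quotient in the endothelial clusters of the library (x axis, 0 for equal), in 5 other clusters, with *akt*Δ/Δ (red) above WT (dark blue) and 95% counting intervals as bars. *fli1b* lies right of 0 in the neutrophil-like and macrophage-like clusters, and *etv2* lies left of 0 in the stem and progenitor-like cluster.

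Most endothelial cells showed several of the factors. Shares depend on depth, and *akt*Δ/Δ endothelial cells had a median of 8455 UMIs against 5620 in WT, so each cell was thinned to 3000 UMIs and shallower cells, 1287 in *akt*Δ/Δ and 1552 in WT, were left out. *etv2* was then detected in 73.8% of *akt*Δ/Δ endothelial cells (72.6 to 75.0) and 78.3% of WT cells (77.3 to 79.2), and without thinning in 83.5% of *akt*Δ/Δ and 83.0% of WT cells. Of thinned erythroid-like cells, whose unthinned medians were 29228.5 UMIs in *akt*Δ/Δ and 20254 in WT, 5.24% in *akt*Δ/Δ and 8.61% in WT had it. The median was 2 *etv2* UMIs per thinned cell in both libraries. *fli1a* was detected in 74.9% of thinned *akt*Δ/Δ cells (73.7 to 76.1) and 69.2% of WT cells (68.1 to 70.3), against 12.9% of erythroid-like cells in *akt*Δ/Δ and 9.83% in WT. *ets1* was detected in 24.3% of thinned *akt*Δ/Δ cells and 30.8% of WT cells, against 1.22% of erythroid-like cells in *akt*Δ/Δ and 3.28% in WT. *elk3* was detected in 7.98% of *akt*Δ/Δ and 12.5% of WT cells, *fli1b* in 38.6% of *akt*Δ/Δ and 45.9% of WT cells, and *erg* in 61.1% of *akt*Δ/Δ and 57.3% of WT cells. *npas4l* was in 1.11% of thinned *akt*Δ/Δ cells (0.84 to 1.43) and 0.67% of WT cells (0.50 to 0.89). For the 6 factors other than *etv2* the share and the CPM were higher or lower in *akt*Δ/Δ together, while the sign of the *etv2* CPM ratio depends on the scaling.

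A thinned endothelial cell had a median of 3 of the 7 factors in both libraries, with a mean of 2.82 in *akt*Δ/Δ and 2.95 in WT. No factor was detected in 2.86% of *akt*Δ/Δ cells (2.43 to 3.35) and 2.20% of WT cells (1.87 to 2.56). In the endocardium-like cluster 7.81% of *akt*Δ/Δ cells and 6.39% of WT cells had none. At the other end, 0 of 5236 *akt*Δ/Δ cells and 1 of 7278 WT cells had all 7, and the 0 allows a share of up to 0.0573%, which is 3 cells of the total. In the erythroid-like cluster 78.7% of *akt*Δ/Δ cells and 76.5% of WT cells had none.

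**Figure D5:**
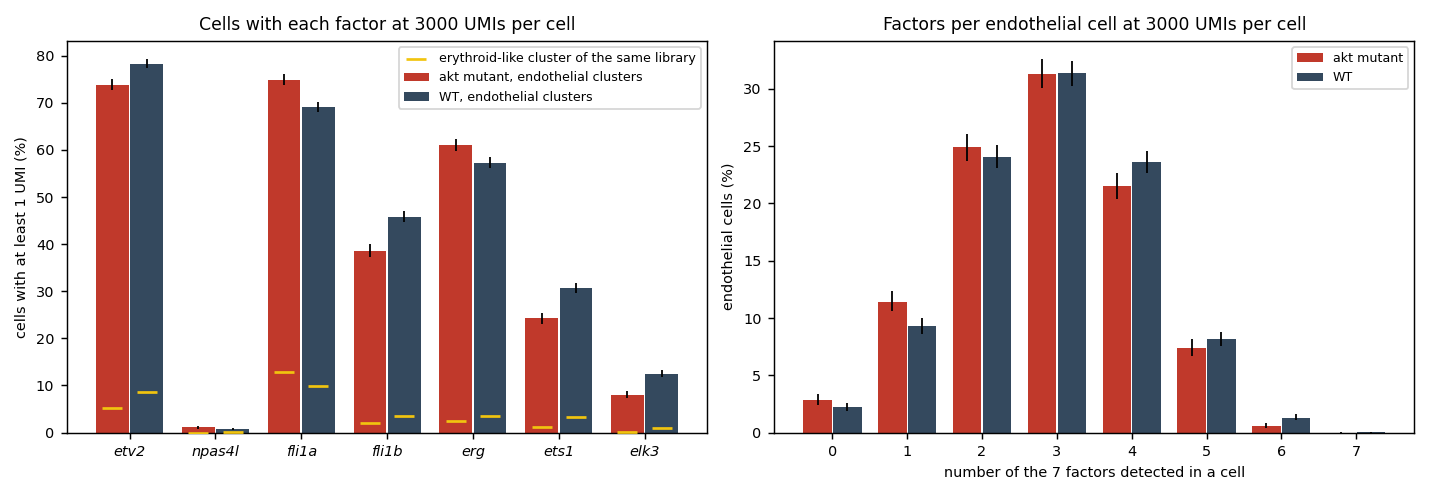
Left, percent of endothelial cells with at least 1 UMI of each factor at 3000 UMIs per cell (bars, with 95% intervals) in *akt*Δ/Δ (red) and WT (dark blue), and the same share in erythroid-like cells (yellow marks). Right, percent of endothelial cells with 0 to 7 factors detected. Both distributions peak at 3 factors, with 31.3% of *akt*Δ/Δ and 31.4% of WT cells.

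Of the other Ets family genes, 21 of 24 symbols were in the files and 18 had at least 20 UMIs in endothelial clusters. Of these, 4 were higher in *akt*Δ/Δ beyond counting error and 4 lower, where 17.9% of all genes were higher and 31.0% lower, with a median log2 ratio of -0.03 against -0.09 over all genes. The highest was *etv6*, a repressor of the family, at 9.08 CPM in *akt*Δ/Δ and 4.94 CPM in WT, a log2 ratio of 0.88 (0.66 to 1.1), followed by *erfl3* at 74.4 CPM in *akt*Δ/Δ and 54.9 CPM in WT. The lowest were *spi1a*, with 12 UMIs in *akt*Δ/Δ and 25 in WT, and *spi1b*, the Pu.1 factor of myeloid cells, with 68 in *akt*Δ/Δ and 137 in WT. *ets2*, the paralog of *ets1*, was at 34.6 CPM in *akt*Δ/Δ and 32.6 CPM in WT, and *elk1* and *elk4*, the other ternary complex factors, had log2 ratios of -0.19 (-0.44 to 0.07) for *elk1* and 0.33 (-0.04 to 0.70) for *elk4*, so that none of these 3 differed beyond counting error.

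Of 12 partner factors of the angioblast program, 5 were higher in *akt*Δ/Δ and 6 lower, with a median of -0.07 against the -0.09 of all genes, of which 17.9% were higher and 31.0% lower. *hhex*, a homeobox factor of early endothelium and blood, was highest, at 283 CPM in *akt*Δ/Δ and 182 CPM in WT, a log2 ratio of 0.64 (0.60 to 0.67). *tal1* was next, at 74.8 CPM in *akt*Δ/Δ and 62.2 CPM in WT, and *arnt2*, of the bHLH-PAS family whose Arnt members pair with such factors, was lowest, at 7.91 CPM in *akt*Δ/Δ and 13.2 CPM in WT. *foxc1b*, a forkhead factor that acts with Etv2 on endothelial enhancers, followed at 3.25 CPM in *akt*Δ/Δ and 5.02 CPM in WT.

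Of 20 pan-endothelial genes, chosen as targets of Etv2 or other Ets factors, 5 were higher in *akt*Δ/Δ and 11 lower, with a median of -0.13 against the same background of 17.9% higher, 31.0% lower and a median of -0.09. Among the 11 were *kdrl* and *cdh5*, the genes by which the endothelial clusters were chosen. The lists hold no other gene of that rule. The lowest were *ecscr*, a surface protein of endothelial cells, at 166 CPM in *akt*Δ/Δ and 277 CPM in WT, a log2 ratio of -0.74 (-0.78 to -0.70), and *plvapb*, which forms the diaphragms of fenestrae, at 272 CPM in *akt*Δ/Δ and 398 CPM in WT. The highest were *tek*, the angiopoietin receptor, at 224 CPM in *akt*Δ/Δ and 186 CPM in WT, and *fgd5a* at 93.9 CPM in *akt*Δ/Δ and 80.7 CPM in WT.

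The genes most alike in pattern were sought by Pearson correlation of log2(CPM + 1) over 41 cluster sums of at least 20 cells, which share their libraries and their split into endothelial and other cells. They are given as a description. For *etv2* they began with *myct1a* (r = 0.97), *shank3b*, *si:ch73-334d15.1* and the endothelial receptor genes *gpr182* and *aplnrb*, for *erg* with *myct1a* (r = 0.98) and *gpr182*, and for *fli1a* with *rasip1* (r = 0.97), *si:dkeyp-97a10.2*, *sox18* and *cdh5*. *ets1* was closest to *tspan18b* (r = 0.94) and *sox18*, and *elk3* to the receptor gene *tie1* (r = 0.93). For *fli1b* they were *XLOC_011085* (r = 0.95) and *iqgap2*, and for *npas4l* no gene passed 0.78. Between the factors themselves, over the 16 endothelial cluster sums, *ets1* and *fli1b* were most alike (r = 0.93) and then *etv2* and *ets1* (r = 0.84).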

How the data were processed

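The authors deposited 1 matrix of raw UMI counts per library, made with Cell Ranger 5.0.0 (submitters' processing notes) and not normalized. Neither build nor annotation of the genome is given in the sources used here. Cells with at least 200 detected genes (25860 of 25864) and genes in at least 3 cells were kept. The study words its cell filter as unique transcripts, and since each cell has at least 500 UMIs that reading would remove none. Neither reading gives the number of cells the study states. Clustering used Seurat 5.3.0 (R 4.3.3), the tool of the study, with settings chosen here: log normalization to 10000, 2000 variable genes, 30 components, no integration, and a resolution of 0.6, the lowest that gave the study's number of clusters. Endothelial clusters and cluster names may therefore differ from the study's. Clusters were named from written marker lists. Doublets were kept, and the highest Scrublet scores (scanpy 1.11.5), 716 cells in *akt*Δ/Δ and 2151 in WT, were left out in an alternative. Sums, intervals and thinning used Python 3.11.15 (pandas 2.3.3, scipy 1.17.1, numpy 2.4.6), and TMM factors came from edgeR 4.0.16. Ratios were computed for all genes with at least 20 UMIs.

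All 7 factors are named. A list gene is named where its ratio is among the 2 highest or 2 lowest of its list or where it is a paralog of a factor, and 5 genes per factor were ranked by likeness, of which the leading ones are named. *elk1* and *elk4* are named as paralogs of *elk3*, *fev* as a paralog of *erg* and the *fli1* copies, and *kdrl* and *cdh5* because the endothelial clusters were chosen by them. The factors and lists were chosen with earlier results of these data known. RefSeq symbols on GRCz12tu were matched for all 7, with 3 of them (*etv2*, *fli1a*, *fli1b*) by synonym. The ratio calculation was tested on simulated data. Alternatives concerned filters, clustering, class rules, scaling and depth.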

Additional observations from a re-analysis of the deposited data

Results flagged for a closer look

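*etv2* stood out because *akt*Δ/Δ over WT gave a log2 ratio of 0.19 (0.12 to 0.26) among artery cells and of -0.10 (-0.13 to -0.07) among vein cells, on opposite sides of 0. The difference between these ratios was not tested, since each genotype has 1 library. With clusters in place of detected markers both ratios were above 0 (0.030 and 0.046), TMM factors gave -0.019 (-0.047 to 0.010) among vein cells, and 2 of the 3 markers gave 0.056 (-0.008 to 0.119) among artery cells. The median ratio of all genes was 0.02 among artery cells and -0.09 among vein cells.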

How the results depend on the processing

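The signs of the *npas4l*, *fli1a*, *erg* and *elk3* ratios over the endothelial clusters were kept under the 10 alternatives that could change them. Leaving the factors out of the variable genes changed nothing, since none was among these. The filter at 500 genes, the clustering settings, the omission of low-depth clusters or high Scrublet scores and the use of the same cluster weights moved none of the 7 beyond its counting interval. Taking all cells with a UMI of *kdrl* or *cdh5*, which adds cells of other clusters, turned *etv2* to 0.31, *fli1b* to 0.017 and *ets1* to 0.047, and gave 0.59 for *fli1a*, 0.55 for *erg* and -0.33 for *elk3*. Such ratios mix endothelial and other cells, whose shares of all cells differ between the libraries. TMM scaling turned *etv2* to 0.048 and gave 0.34 for *fli1a*, -0.21 for *fli1b*, 0.29 for *erg* and -0.18 for *ets1*. Thinning to 1000 UMIs gave 1.26 for *npas4l*, -0.43 for *fli1b*, 0.16 for *erg*, -0.18 for *ets1* and -0.47 for *elk3*, and thinning to 3000 UMIs gave -0.11 for *etv2* and -0.39 for *ets1*. Thinning to 3000 UMIs and the same weights were chosen after seeing the data.

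In artery cells, needing 2 of the 3 markers gave 0.056 for *etv2* and -0.23 for *ets1*, clusters in their place gave 0.030 for *etv2* and 0.27 for *fli1a*, and thinning to 1000 UMIs before calling, which left 11 *akt*Δ/Δ and 22 WT cells, gave 0.58 for *etv2*, 0.83 for *fli1a*, 1.0 for *fli1b* (reversed, -1.42 to 3.42), 2.0 for *erg* and 1.0 for *ets1*. In vein cells, clusters in their place turned *etv2* to 0.046 and gave -0.10 for *ets1*, TMM scaling gave -0.019 for *etv2*, 0.39 for *fli1a*, -0.19 for *fli1b*, 0.30 for *erg* and -0.17 for *ets1*, and thinning (247 *akt*Δ/Δ and 599 WT cells) gave 0.46 for *fli1a*, -0.54 for *fli1b*, 0.36 for *erg*, -0.37 for *ets1* and -1.60 for *elk3*. The cause of these shifts was not tested. No paired analysis was possible because each genotype has 1 library.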
